A study of Mus musculus with 4 samples.

Results

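Amino acid transporters and the enzymes of proline synthesis were examined in cultured cells from mouse mammary tumours after exposure to GSK-126. This compound inhibits EZH2, the enzyme that trimethylates H3K27 and thereby marks genes for silencing. The set was a list of 10 gene symbols, and these named 8 transporter genes, Slc1a5, Slc1a4, Slc7a5, Slc3a2, Slc7a11, Slc7a1, Slc38a1 and Slc38a2, and 2 proline synthesis genes, Aldh18a1 and Pycr1. Each gene was read from a probe set that carried its symbol alone in the platform annotation, and where there were several, the probe set was chosen by its mean log2 level across the arrays, taking the highest. Levels are therefore a description, and the difference between treatments was not part of the choice of probe set. The gene list itself was drawn up with earlier results of these data known. The probe set rule gave values for 9 of the 10, among 22180 genes in all. Pycr1 was not matched to a probe set of its own and has no value here.

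Cells came from lines established from mammary tumours of female FVB mice carrying the MMTV-NIC transgene, in which the mammary tumour virus promoter drives an activated ErbB2 and, from the same transcript, Cre recombinase in the mammary epithelium. All cells therefore carried the transgene, and all were grown in DMEM with serum, EGF, hydrocortisone, insulin and bovine pituitary extract. Treated cells received 2 µM GSK-126 for 96 h (n = 2 arrays) and control cells the vehicle DMSO for 96 h (n = 2 arrays). The labels do not say whether the arrays of a group came from separate cultures or separate lines, so p-values reflect variation among these 4 arrays alone, some or all of which could be technical. The ages of the mice were not given in the sources used here.

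Cells take up most amino acids through membrane carriers of the solute carrier families. Some carriers move an amino acid inward together with sodium, others exchange an amino acid outside for another inside, and several exchangers reach the cell surface only as a complex with the glycoprotein encoded by Slc3a2. Proline is made in mitochondria from glutamate, which the enzyme encoded by Aldh18a1 converts to a cyclic intermediate that Pycr1 and its relatives reduce to proline. Many of these genes are induced by the transcription factor ATF4 when amino acids are scarce, and glutamine and leucine uptake is a common trait of mammary tumour cells.

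The cell type was first checked against marker genes. Of 12 luminal epithelial markers measured, 11 had a mean above 4.77, the 40th percentile of mean log2 level over all genes, below which genes are called dim here. The keratin genes Krt8 (10.56) and Krt18 (11.67), as log2 levels averaged over the 4 arrays, were among them, and Krt19 was dim. Below that level were 5 of 7 endothelial, 8 of 10 immune and 4 of 5 adipocyte markers. Only 4 of 9 fibroblast markers were dim, close to the 40% of all genes that the bound sets. Ptprc, the pan-leukocyte marker, was dim. Cd68, a lysosomal macrophage marker, rose from 8.14 ± 0.09 to 9.14 ± 0.03 (mean ± SD, n = 2, limma adjusted p = 0.010). Its call ended with the replicate block (adjusted p = 0.0614), without any 1 array (0.110 to 0.233), without the intensity trend (0.169) and with all probe sets tested (0.338). Of the other 9 immune markers, 7 had a lower treated mean. The 10 together summed to 46.8 log2 units on both DMSO arrays and to 46.8 and 46.9 on the GSK-126 arrays. The differences of those 9 summed to -0.93 against 1.00 for Cd68. As 8 of the 10 were dim, these sums cannot show whether immune cell RNA changed. The 12 luminal markers had a median difference of -0.10, and 0 passed the threshold in limma. At an unadjusted p under 0.05, Elf5, a transcription factor of the luminal lineage (-0.38), and the tight junction gene Cldn7 (-0.22) were lower and its relative Cldn4 (0.39) was higher. The luminal markers summed to 116.7 to 116.8 log2 units in DMSO and to 116.0 on both GSK-126 arrays. Treated means were higher in 7 of 9 fibroblast, 6 of 7 endothelial and 2 of 5 adipocyte markers, against 10651 of 22180 genes. The fibroblast markers Pdgfra (0.45) and Thy1 (0.35) and the adipocyte marker Fabp4 (0.62) were higher at an unadjusted limma p under 0.05, and 0 were lower. Over all genes 4.64% were higher by that rule. Pdgfra and Fabp4 were dim, and none of these markers passed the threshold. Whether any of these differences bears on a transporter was not tested. Arrays correlated at 0.981 to 0.988 over all probe sets, with GSK-126 replicate 2 correlating least with the others.

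No member passed the threshold of an adjusted p under 0.05 in limma, where 96 of all genes, or 0.433%, did, 38 of them lower and 58 higher. With arrays centred on their medians, 62 genes passed as lower and 55 as higher. Without adjustment, 5 of the 9 members were lower with GSK-126 at a p under 0.05, namely Slc7a5, Slc1a5, Aldh18a1, Slc7a11 and Slc38a2, and 0 were higher. Over all genes 5.93% were lower by that rule and 4.64% higher. In 6 members both GSK-126 arrays lay below both DMSO arrays, against 21.8% of all genes, and in 3 the groups overlapped. The median difference of the 9, GSK-126 minus DMSO on the log2 scale, was -0.25, against -0.01 over all genes. Mean levels were lower in 8 of the 9 members and in 52.0% of all genes. The members were listed with earlier results of these data known, so these counts and the median describe them and are not a test. In bulk RNA, fewer cells of a type and less RNA per cell cannot be told apart.

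**Figure D1:**
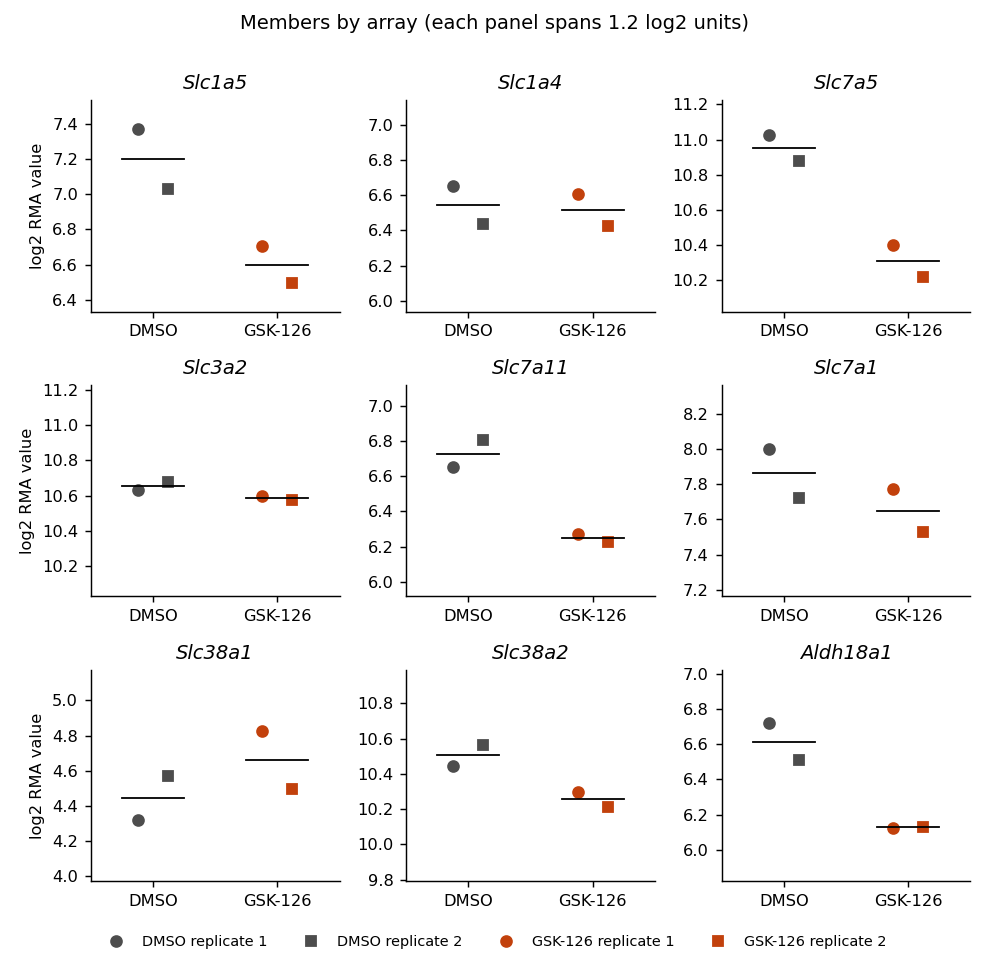
Log2 RMA values of the 9 members on each array, with DMSO in grey and GSK-126 in orange, circles for replicate 1, squares for replicate 2 and a line at each group mean. All panels span the same number of log2 units. In Slc1a5, Slc7a5, Slc3a2, Slc7a11, Slc38a2 and Aldh18a1 both orange points lie below both grey points, and in Slc1a4, Slc7a1 and Slc38a1 the groups overlap.

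Slc7a5 encodes the exchanger that brings in leucine and other large neutral amino acids, and it had the smallest p of the members. Its log2 levels were 11.03 and 10.88 in DMSO and 10.40 and 10.22 with GSK-126. Both treated arrays were below both controls, and the gap between groups was wider than the spread within either. The difference was -0.64 (SE 0.10, 95% interval -0.87 to -0.41), a level 1.56-fold lower, with a limma adjusted p of 0.0506. It ranked 100th by p among the 22180 genes, just beyond the 96 that passed. The adjusted p fell under the threshold with a robust prior (0.0418, where 0.203% of genes were called lower), without dim genes (0.0226, 0.496% lower), with arrays centred on their medians (0.0291, 0.28% lower) and after quantile normalization (0.0446, 0.171% lower). It did not with any of the other alternatives, under which it ran up to 0.541.

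Slc3a2 encodes the shared heavy chain that carries the Slc7a5 and Slc7a11 exchangers to the cell surface. Its log2 levels were 10.63 and 10.68 in DMSO and 10.60 and 10.58 with GSK-126. The treated arrays were lower, but by little. The difference was -0.07 (SE 0.08, 95% interval -0.25 to 0.11, limma adjusted p = 0.826), and an interval of that width leaves room for a level a little lower or higher.

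Slc7a11 encodes the exchanger that imports cystine, the oxidised form of cysteine, and releases glutamate, which supplies glutathione synthesis. Its log2 levels were 6.65 and 6.81 in DMSO and 6.27 and 6.23 with GSK-126. The groups did not overlap, and the treated arrays differed from each other by only 0.04. The difference was -0.48 (SE 0.11, 95% interval -0.74 to -0.21), a level 1.39-fold lower, with a limma adjusted p of 0.205. A second probe set for the gene, at a mean of 3.05 and so dim, differed by -0.13 (SE 0.17), and the average of both by -0.31.

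Slc1a5 encodes the sodium-dependent exchanger that imports glutamine, and Slc1a4 a relative that carries alanine, serine and cysteine. The log2 levels of Slc1a5 were 7.37 and 7.03 in DMSO and 6.71 and 6.49 with GSK-126. Both treated arrays were lower, although the DMSO arrays differed from each other by 0.35. The difference was -0.60 (SE 0.14, 95% interval -0.93 to -0.27), a level 1.52-fold lower, with a limma adjusted p of 0.208. The probe sets of Slc1a5 disagreed in direction. The dimmer of them, with a mean of 4.93 against 6.90 for the probe set used, was at 4.88 and 4.78 in DMSO and 4.90 and 5.14 with GSK-126, a difference of 0.19 (SE 0.16). The average of the probe sets differed by -0.20 (adjusted p = 0.642), so the size for this gene rests on the choice of probe set.

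Slc1a4 was at 6.65 and 6.44 in DMSO and 6.61 and 6.43 with GSK-126. The groups overlapped almost fully. The difference was -0.03 (SE 0.13, 95% interval -0.32 to 0.27, limma adjusted p = 0.975), and its sign turned without DMSO replicate 1 (0.08) or GSK-126 replicate 2 (0.06).

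Slc38a2 and Slc38a1 encode related sodium-coupled carriers of small neutral amino acids, glutamine among them, and Slc38a2 is known to be induced when cells are deprived of amino acids. Slc38a2 was at 10.44 and 10.57 in DMSO and 10.30 and 10.21 with GSK-126. The groups were apart, by a small amount. The difference was -0.25 (SE 0.09, 95% interval -0.45 to -0.05), a level 1.19-fold lower, with a limma adjusted p of 0.380. Its unadjusted p of 0.0207 became 0.0706 without DMSO replicate 2, 0.0637 without GSK-126 replicate 1, 0.153 without GSK-126 replicate 2 and 0.0774 without the intensity trend. Slc38a1, the only dim member, was at 4.32 and 4.57 in DMSO and 4.83 and 4.5 with GSK-126. It was the only member with a higher treated mean, the groups overlapped, and the difference of 0.22 (SE 0.18, 95% interval -0.21 to 0.64) had a limma adjusted p of 0.735. It was 0.05 without GSK-126 replicate 1, 0.09 without DMSO replicate 1, 0.35 without DMSO replicate 2 and 0.38 without GSK-126 replicate 2.

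Slc7a1 encodes the main carrier of the cationic amino acids arginine and lysine. It was at 8.0 and 7.72 in DMSO and 7.77 and 7.53 with GSK-126. The groups overlapped, as GSK-126 replicate 1 lay above DMSO replicate 2. The difference was -0.21 (SE 0.13, 95% interval -0.52 to 0.09, limma adjusted p = 0.617), and it ran from -0.35 without DMSO replicate 2 and -0.34 without GSK-126 replicate 1 to -0.09 without GSK-126 replicate 2 and -0.08 without DMSO replicate 1.

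Aldh18a1, the proline synthesis gene with a value, encodes the enzyme of the first steps from glutamate. It was at 6.72 and 6.51 in DMSO and 6.13 and 6.13 with GSK-126. The treated arrays were nearly equal and both below the controls. The difference was -0.49 (SE 0.12, 95% interval -0.77 to -0.21), a level 1.40-fold lower, with a limma adjusted p of 0.223. The members with the most negative differences therefore stood at 64.1% (Slc7a5), 66.0% (Slc1a5), 71.4% (Aldh18a1) and 71.8% (Slc7a11) of their DMSO levels. The 95% intervals of these genes overlapped each other, so their order is not resolved.

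**Figure D2:**
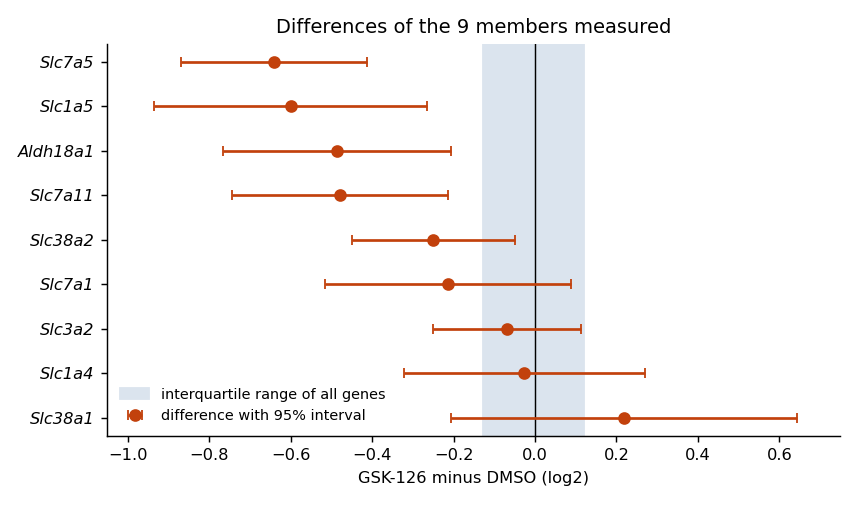
Difference between GSK-126 and DMSO on the log2 scale for each member (points) with its 95% interval from limma (bars); the shaded band is the interquartile range over all genes, -0.13 to 0.12. The intervals of Slc7a5, Slc1a5, Aldh18a1, Slc7a11 and Slc38a2 lie below 0, and those of the other members include 0.

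Members that share a complex or a family were then compared within each array, where a factor that shifts both genes alike cancels. A factor that depends on level or probe does not cancel. There were 4 such comparisons. Slc7a5 minus Slc3a2 was 0.39 and 0.20 in DMSO and -0.20 and -0.36 with GSK-126, so the exchanger was lower relative to its heavy chain by a difference of -0.57. Slc7a11 minus Slc3a2 was -3.98 and -3.87 in DMSO and -4.33 and -4.35 with GSK-126, a difference of -0.41. Slc1a5 minus Slc1a4 was 0.72 and 0.59 in DMSO and 0.10 and 0.07 with GSK-126, a difference of -0.57, which carries the disagreement between the Slc1a5 probe sets. Slc38a2 minus Slc38a1, the latter dim, was 6.13 and 6.0 in DMSO and 5.47 and 5.72 with GSK-126, a difference of -0.47. In all 4 the groups did not overlap. The first gene of each pair was already apart and lower by itself, so this count in part repeats the results above. The share over other gene pairs was not computed. Among single genes 21.8% were apart and lower and 18.2% apart and higher. Each had a two-sided exact permutation p of 0.333, the smallest that 2 arrays against 2 can give, and 0.333 after Benjamini-Hochberg adjustment over the 4. The offsets between genes depend on the probes and have no meaning as relative abundance.

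**Figure D3:**
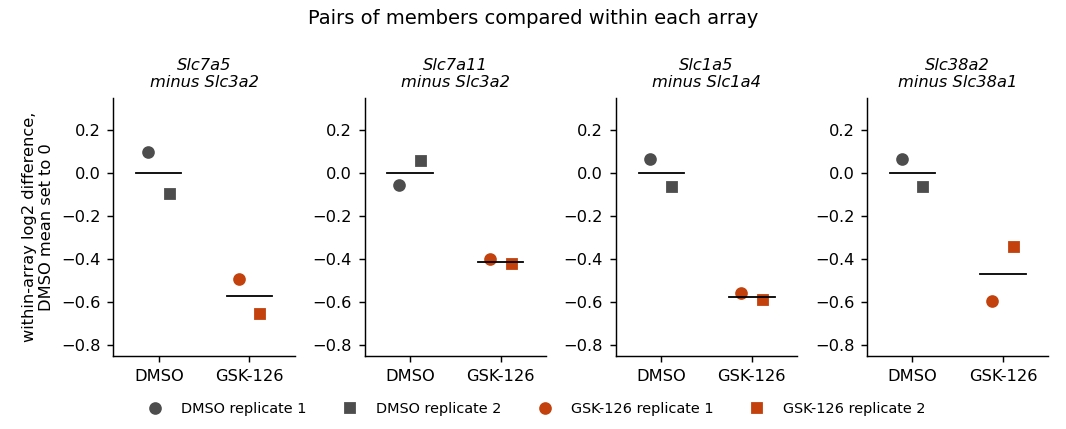
Within-array log2 difference between members of a complex or family for DMSO (grey) and GSK-126 (orange), circles for replicate 1 and squares for replicate 2, shifted so that the DMSO mean (line) is at 0. The treated means lie at -0.57, -0.41, -0.57 and -0.47 from left to right, with no overlap between groups, as for the first gene of each pair alone.

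The members also varied between arrays of a group. Slc1a5, Slc1a4, Slc7a5 and Slc7a1 were higher in replicate 1 than in replicate 2 in both groups, as were 29.1% of all genes. The gaps were 0.35 in DMSO and 0.21 with GSK-126 for Slc1a5, 0.22 and 0.18 for Slc1a4, 0.15 and 0.18 for Slc7a5, and 0.28 and 0.24 for Slc7a1. Asns, the asparagine synthetase gene that ATF4 also induces, had gaps of 0.31 and 0.26 in the same direction. Atf4 itself lay the other way, lower in replicate 1 than in replicate 2 in both groups. Whether ATF4 bears on these gaps was not tested. The other 5 members had opposite orders in the groups. For Slc1a4, Slc7a1 and Slc38a1 the gap between replicates was larger in both groups than the difference between treatments.

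Promoter sequences from RefSeq (GRCm38.p6) were read for the members because many of them answer to the same stress factor. Of the 10 listed genes, 7 had an entry. Slc1a5, Slc7a5 and Slc38a1 had none. Each entry spans 250 bases before to 50 after an annotated start, and Slc7a1 has more than 1. Both strands were searched for TGATGNAA, the core of the C/EBP-ATF response element bound by ATF4 with a C/EBP partner, for TGACNNNGC, the antioxidant response element bound by NRF2, and for CACGTG, the E-box bound by MYC, TFEB and related factors. Of 32851 mouse promoters of this length, 3.97% held the first, 12.4% the second and 7.15% the third. No matches overlapped each other in these members. The promoters of Slc7a11, Slc1a4 and Aldh18a1 are shown because they set 2 members with lower levels beside a member with a difference near 0, with matches in capitals and all written 5′ to 3′ on the gene's strand, which is the minus strand for each. They lie at chr3:50443564-50443863, chr11:20332664-20332963 and chr19:40588414-40588713.
Slc7a11: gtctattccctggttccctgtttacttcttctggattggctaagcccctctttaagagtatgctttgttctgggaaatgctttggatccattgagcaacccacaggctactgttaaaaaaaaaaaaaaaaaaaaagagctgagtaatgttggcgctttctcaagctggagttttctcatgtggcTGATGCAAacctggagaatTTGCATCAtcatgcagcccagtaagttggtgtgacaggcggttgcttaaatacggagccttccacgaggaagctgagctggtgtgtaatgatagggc
Slc1a4: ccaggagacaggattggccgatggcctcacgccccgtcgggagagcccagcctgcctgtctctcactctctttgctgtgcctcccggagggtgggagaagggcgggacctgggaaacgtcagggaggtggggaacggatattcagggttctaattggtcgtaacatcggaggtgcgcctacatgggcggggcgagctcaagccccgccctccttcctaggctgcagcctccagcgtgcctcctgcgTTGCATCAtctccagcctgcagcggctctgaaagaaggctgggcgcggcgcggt
Aldh18a1: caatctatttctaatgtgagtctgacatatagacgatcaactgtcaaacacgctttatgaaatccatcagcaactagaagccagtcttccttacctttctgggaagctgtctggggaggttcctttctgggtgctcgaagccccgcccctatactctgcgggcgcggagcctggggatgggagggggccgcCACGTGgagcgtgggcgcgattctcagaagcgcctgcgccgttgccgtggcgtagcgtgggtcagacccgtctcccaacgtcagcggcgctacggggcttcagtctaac

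The Slc7a11 promoter held 2 matches to the C/EBP-ATF core in opposite orientation, the first beginning 66 and the second 47 bases before the start. Slc1a4 held 1, beginning 4 bases before the start and running across it. The log2 difference was -0.48 for Slc7a11 and -0.03 for Slc1a4, so a match was found beside both. Pycr1, which has no expression value here, also held 1, beginning 103 bases before the start. Aldh18a1 held no C/EBP-ATF core in this window but had an E-box beginning 59 bases before the start. Slc38a2 and Slc7a1 each held 1 match to the antioxidant element, beginning 27 and 11 bases before the start, and Slc3a2 held none of the 3 motifs. Median differences over all measured genes with each motif were 0.01 for the C/EBP-ATF core (666 genes, 2 called higher and 0 lower in limma), -0.01 for the antioxidant element (2533 genes, 6 higher and 4 lower) and -0.01 for the E-box (1561 genes, 3 higher and 6 lower). Over all genes 0.261% were called higher and 0.171% lower.

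Other genes of amino acid transport and use were taken from lists of related genes. Among 29 other amino acid carrier genes measured, of 30 listed and not all of the plasma membrane, 0 passed the threshold in limma. An unadjusted p under 0.05 was reached by 3 that were higher and 2 that were lower, against 4.64% and 5.93% of all genes. Of the 29, 11 were dim, against 1 of the 9 members. The median difference of the 29 was 0.06, and 20 of 29 had a higher treated mean. With arrays centred on their medians these became 0.005 and 15 of 29, while the members' median became -0.30. Slc6a15, a sodium-coupled carrier of branched-chain amino acids and proline, was at 5.86 and 5.58 in DMSO and 6.53 and 6.76 with GSK-126 (0.93, SE 0.15, limma adjusted p = 0.0562). Of the carriers that pair with Slc3a2 and exchange cationic for neutral amino acids, Slc7a6 was at 7.45 and 7.43 in DMSO and 7.83 and 7.83 with GSK-126 (0.39, SE 0.09, adjusted p = 0.191). Its relative Slc7a7 lay the other way, at 9.11 and 8.83 against 8.55 and 8.41 (-0.49, SE 0.11, adjusted p = 0.191).

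Slc43a2, a facilitated carrier of large neutral amino acids, was at 8.40 and 8.34 in DMSO and 8.02 and 7.97 with GSK-126 (-0.37, SE 0.09, limma adjusted p = 0.205). Both treated arrays were below both controls. Slc38a7, of the family of Slc38a1 and Slc38a2, lay the other way, with both treated arrays above both controls. It was at 8.21 and 8.05 in DMSO and 8.49 and 8.47 with GSK-126 (0.34, SE 0.09, limma adjusted p = 0.266). Slc7a8, the closest functional relative of Slc7a5, was dim and differed by 0.15 (SE 0.16), and Slc7a2, a relative of Slc7a1, by 0.15 (SE 0.14), with adjusted p of 0.812 and 0.774.

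Of 18 enzymes of proline, glutamate and ornithine metabolism measured, of 21 listed, 0 passed in limma, and the median difference was 0.06, or 0.01 with centred arrays. At an unadjusted p under 0.05, 3 of the 18 were higher and 0 lower, against 4.64% and 5.93% of all genes. The 3 were Got1 (0.33), the cytosolic aspartate aminotransferase, Arg1 (0.35), which splits arginine into ornithine and urea, and Odc1 (0.20), which turns ornithine into a polyamine. Around Aldh18a1 in the pathway, Pycrl, the cytosolic relative of Pycr1, was at 7.23 and 7.06 in DMSO and 7.02 and 7.05 with GSK-126, and the difference of -0.11 (SE 0.11) had an adjusted p of 0.785. Prodh, which starts proline breakdown, differed by -0.09 (SE 0.13, adjusted p = 0.883). Oat, which links ornithine to the same intermediate as Aldh18a1, was at 8.19 and 8.28 against 8.45 and 8.36, a difference of 0.17 (SE 0.09, adjusted p = 0.567). Of these 4 genes of the route, Aldh18a1 had the most negative difference, and only Oat had a higher treated mean.

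The amino acid response list, with ATF4, its activators and its known targets, had 21 of 22 genes measured and a median difference of 0.02, which turned to -0.03 with arrays centred on their medians. In limma 0 passed, and 7 of the 21 reached an unadjusted p under 0.05. Of these, 5 were higher and 2 lower, where over all genes 4.64% were higher and 5.93% lower by that rule. Atf4 itself was at 9.23 and 9.53 in DMSO and 9.34 and 9.37 with GSK-126, a difference of -0.03 (SE 0.11, 95% interval -0.28 to 0.23). Asns was at 8.14 and 7.83 against 8.09 and 7.83, a difference of -0.03 (SE 0.14, 95% interval -0.34 to 0.29). Both sets of groups overlapped. Nupr1 (0.38), a stress-induced chromatin cofactor, and Ppp1r15a (0.40), which restores translation after stress, were higher at an unadjusted p under 0.05, and Cebpb (-0.35), a partner of ATF4, was lower.

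The cystine use and glutathione synthesis list also held Nfe2l2, the gene of NRF2, and other antioxidant genes such as Hmox1. It had 14 of 15 genes measured and a median of -0.02 (-0.08 with centred arrays). In limma 0 passed the threshold and 0 reached an unadjusted p under 0.05. The smallest p were those of Hmox1 (0.31), Gsr (-0.19) and Txnrd1 (-0.16). Cytosolic aminoacyl-tRNA synthetases, which load amino acids onto transfer RNA and are induced by ATF4 in part, had 18 of 20 measured and a median of -0.07 (-0.12 with centred arrays). Treated means were lower in 16 of 18, by at most 0.26, and 0 passed in limma or reached an unadjusted p under 0.05. The smallest p were those of Vars (-0.26), Nars (-0.16) and Tars (-0.11).

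**Figure D4:**
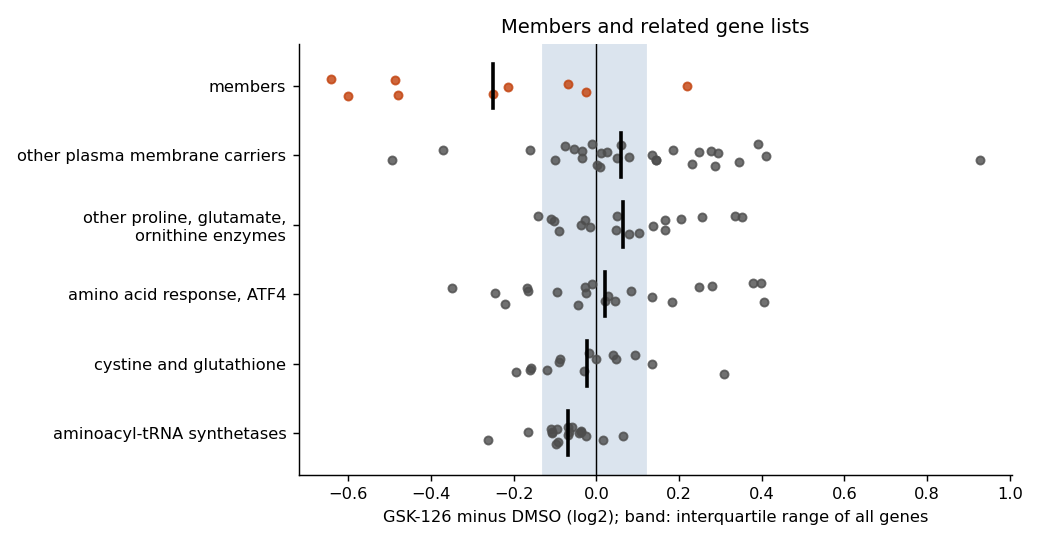
Differences between GSK-126 and DMSO on the log2 scale for each measured gene (points) of the members (orange) and of related lists (grey), with list medians as black lines and the interquartile range of all genes as a band. The members' median of -0.25 lies left of the band, and the medians of the other lists, between -0.07 and 0.06, lie within it. The list labelled as plasma membrane carriers is not limited to that membrane.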

How the data were processed

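Biotin-labelled total RNA was hybridised to 4 single-channel Affymetrix mouse arrays. Per the labels, the authors obtained log2 values by robust multi-array averaging (RMA) in a core-exon setting of Expression Console. Affymetrix Power Tools is named in the submitters' processing notes. Versions and the genome build are not given in the sources used here, and scan dates were not used here. The log2 scale was read from the values, which ran from 0.63 to 13.6, and centring was left as deposited (array medians 4.73 to 4.79).

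Of 41345 probe sets, 23521 carried 1 symbol, 1814 several and 16010 none. Of the single-symbol sets 23328 matched RefSeq genes (GRCm38.p6) through Entrez identifiers, with 0 symbols updated. Listed names without a direct match were looked up among RefSeq synonyms (Pycr3 as Pycrl, Mars as Mars1). Differences were fitted over 22180 genes with limma 3.58.1 in R 4.3.3, with an intensity trend, 2 residual and 5.57 prior degrees of freedom and Benjamini-Hochberg adjustment over all genes, and intervals are at 95%. The fit was tested on simulated data with planted changes larger than the difference of any member. That test cannot show how the fit performs for differences as small as those of the members. For arrays, their number limits the precision. Between 142 and 181 of the 41345 values were exactly equal, at all digits deposited, in any array pair, so no array was a copy.

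The members and lists were chosen with earlier results of these data known. The naming rule took all members, up to 3 genes with the smallest p from each related list, and, among others, relatives in the same reaction or family (Asns, Atf4, Pycr3, Prodh, Oat, Slc7a2, Slc7a6, Slc7a7, Slc7a8). Replicate numbers were not used as pairs in the main fit, as the sources used here state no pairing. Deviations from group means of same-numbered arrays correlated at -0.03 over all genes. This value cannot decide whether the arrays were paired.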

Additional observations from a re-analysis of the deposited data

How the results depend on the processing

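Of 107 member differences under the alternatives, 105 kept their direction. The exceptions were Slc1a4 without DMSO replicate 1 (0.082) and without GSK-126 replicate 2 (0.064), within a leave-out range of -0.13 to 0.082. The count of members past the threshold was 0 and became 1, Slc7a5, with a robust prior, without dim genes, with arrays centred on their medians and after quantile normalization. Members lower at an unadjusted p under 0.05, a count whose alternatives were chosen after seeing the data, numbered 3 with averaged probe sets, which ended those of Slc1a5 and Slc7a11, and 4 to 5 when 1 array was left out. Slc38a2 lost that p without DMSO replicate 2, where Slc7a1 gained it (0.0453), and without either GSK-126 array. The members' median ran from -0.35 to -0.21 when 1 array was left out and was -0.36 without dim genes, which leaves out Slc38a1. Over all genes, 96 calls became 149 without dim genes, 10 with the replicate block, 0 to 4 when 1 array was left out and, in limma, 0 without the intensity trend (1964 at an unadjusted p under 0.05) and 0 with all probe sets tested (2921). The cause was not tested. When 1 array was left out, the median ran from 0.01 to 0.09 for the other carriers, from -0.003 to 0.13 for the proline, glutamate and ornithine enzymes, from -0.01 to 0.06 for the amino acid response, from -0.06 to -0.0004 for cystine use and from -0.11 to -0.04 for the synthetases. Centred arrays gave 55 higher and 62 lower against 58 and 38. With the replicate block the adjusted p of Slc7a5 was 0.137, and no member passed.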
